A study of Mus musculus with 24 samples.

Results

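Prox1, Neurod1, Neurod2, Neurod6, Bcl11a, Bcl11b, Zbtb20, Meis2 and Tbr1 are 9 transcription factors known from the development and identity of glutamatergic (excitatory) neurons. They were chosen by name, as 9 of the 33902 gene rows in a single-nucleus RNA sequencing (snRNA-seq) table of the mouse ventral hippocampus. Their levels were described in all 17 cell types of the table and compared between 2 inbred strains, C57BL/6J (B6) and DBA/2J (D2). The mice were adult males, 10 to 16 weeks old, and each replicate combined about 2 animals, with 2 libraries per strain. Nuclei for snRNA-seq were sorted on NeuN, a protein of neuronal nuclei, so that neurons were enriched in each library. Reads of B6 were mapped to mm10 and reads of D2 to a version of mm10 carrying D2 bases, so that the reference differed with the strain. The gene rows differed too, with 8251 rows at 0 in B6 and 1007 rows at 0 in D2 over all cell types. All 9 genes had counts in both strains.

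The hippocampal circuit runs from granule cells of the dentate gyrus (DG) to pyramidal cells of CA3 and CA1, and these neurons keep distinct sets of transcription factors into adulthood. Prox1 is a homeodomain factor needed for granule cell identity, and the Neurod genes encode basic helix-loop-helix (bHLH) proteins that drive neuronal differentiation and bind E-box DNA together with E proteins such as Tcf4 and Tcf12. Bcl11a and Bcl11b (also called Ctip1 and Ctip2) are zinc finger proteins of cortical projection neurons, Zbtb20 is a repressor required for hippocampal pyramidal neurons and also made by astrocytes, Meis2 is a homeodomain protein that works with Pbx factors, and Tbr1 is a T-box factor of deep cortical and Cajal-Retzius neurons.

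Of the 17 cell types, 8 were excitatory, namely granule cells (Exc-DG), Exc-CA3, 3 CA1 clusters (Exc-CA1-Galntl6, Exc-CA1-Camk2d and Exc-CA1-Fras1), Exc-ENT, Exc-Gpc6 and Exc-Cdh12. The others were Cajal-Retzius cells (CR), 3 interneuron types (MGE, CGE and Lamp5), astrocytes, oligodendrocytes (ODC), their precursors (OPC), microglia (MGC) and vascular and leptomeningeal cells (VLMC). The 4 libraries held 6312 to 8707 nuclei and 43048686 to 56452272 counts. Counts per column ran from 139713 in CR to 11352265 in Exc-DG, so that 3 counts stood for 21.5 and 0.264 CPM (counts scaled to the column total) in these columns. Of 54 marker entries checked, 47 were highest in the cell type they mark, and the 7 others included Prox1 among the granule cell markers. One column in each of 2 cell types stood apart. In CR, the defining marker Trp73 was at 375 and 400 CPM in B6 libraries 2 and 3 and at 229 and 61.6 CPM in D2 libraries 2 and 3. In the same order Reln was at 4298, 4806, 2784 and 1226 CPM, and Lhx5 at 47.9, 24.9, 21.5 and 0 CPM. All 3 markers were thus lower in both D2 columns than in both of B6, and lowest in D2 library 3. In Exc-CA1-Camk2d, the CA1 marker Fibcd1 was at 78.3 CPM in B6 library 2 and at 28.6 to 40.9 CPM in the other libraries, while Wfs1, also a CA1 marker, was at 25.6 CPM there against 38.9 to 46.4 CPM, and Mpped1 at 199 CPM lay within the range of the others (190 to 235 CPM). In Exc-CA1-Fras1 the CA1 markers Fibcd1 (7.39 CPM) and Wfs1 (3.6 CPM) lay within the range of the types outside CA1, while Mpped1 (211 CPM) and Pex5l (2170 CPM) were highest there, so that it is called CA1 by its label. Slc17a7, the vesicular glutamate transporter of excitatory neurons, had counts in every cell type, at means of 203 to 387.5 CPM in the excitatory types, 42.5 to 78.2 CPM in the non-neuronal types and 16.1 to 17 CPM in interneurons.

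The promoters of the 3 Neurod genes and of Prox1 are shown because accessibility was measured over them and because Neurod proteins bind the E-box. Each window runs from 250 bases before to 50 bases after a start site annotated in RefSeq (GRCm38.p6), all 4 on the minus strand and read 5′ to 3′. The windows lie at chr6:55681214-55681513 (Neurod6), chr11:98329596-98329895 (Neurod2), chr2:79456587-79456886 (Neurod1) and chr1:190170778-190171077 (Prox1, the first of its 2 windows). Capitals mark the E-box form CAGNTG, searched on both strands. Other forms of the E-box were not searched.
Neurod6: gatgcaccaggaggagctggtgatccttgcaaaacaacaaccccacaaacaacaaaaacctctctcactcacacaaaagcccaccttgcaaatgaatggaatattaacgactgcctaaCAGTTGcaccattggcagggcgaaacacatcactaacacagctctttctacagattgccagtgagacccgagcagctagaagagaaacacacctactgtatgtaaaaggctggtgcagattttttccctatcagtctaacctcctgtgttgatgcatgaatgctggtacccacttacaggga
Neurod2: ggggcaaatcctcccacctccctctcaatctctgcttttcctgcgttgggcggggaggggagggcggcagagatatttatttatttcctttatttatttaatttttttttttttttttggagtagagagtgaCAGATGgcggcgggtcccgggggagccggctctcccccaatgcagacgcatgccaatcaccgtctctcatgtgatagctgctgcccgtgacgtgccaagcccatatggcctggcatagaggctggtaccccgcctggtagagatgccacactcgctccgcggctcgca
Neurod1: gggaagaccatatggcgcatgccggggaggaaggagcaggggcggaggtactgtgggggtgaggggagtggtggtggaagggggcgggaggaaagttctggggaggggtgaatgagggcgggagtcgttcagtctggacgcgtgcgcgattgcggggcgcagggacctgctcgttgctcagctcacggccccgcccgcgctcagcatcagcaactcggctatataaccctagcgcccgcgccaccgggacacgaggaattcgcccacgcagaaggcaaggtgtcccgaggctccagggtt
Prox1: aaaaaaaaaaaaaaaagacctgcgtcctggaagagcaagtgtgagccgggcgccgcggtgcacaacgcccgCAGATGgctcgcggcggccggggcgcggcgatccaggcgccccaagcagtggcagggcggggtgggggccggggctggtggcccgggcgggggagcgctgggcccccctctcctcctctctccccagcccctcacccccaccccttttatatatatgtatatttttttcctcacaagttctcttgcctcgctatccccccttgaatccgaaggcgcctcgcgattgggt
The windows of Neurod6, Neurod2 and Prox1 held 1 match to CAGNTG each and that of Neurod1 held none. Over the 9 genes, 4 of 10 windows held at least 1, the remaining window with a match being that of Tbr1, while 51.4% of all 32851 RefSeq promoter windows did.

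Each gene had its own distribution over the cell types. The cell types were defined from the same nuclei and genes, so that differences between types are described without a test. Levels are CPM of all counts of a column, averaged over the libraries of each strain and then over strains, and they compare cell types within 1 gene. A low level in a column cannot tell fewer nuclei carrying a transcript from less RNA per nucleus. The highest level fell in an excitatory type for 5 of the 9 genes (Neurod2, Neurod6, Bcl11a, Bcl11b and Meis2) and in CR for the other 4. With TMM factors over all columns the number was 7, since Prox1 was then highest in Exc-DG (315 against 253 CPM in CR) and Tbr1 in Exc-ENT (32.4 against 28.5 CPM).

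**Figure D1:**
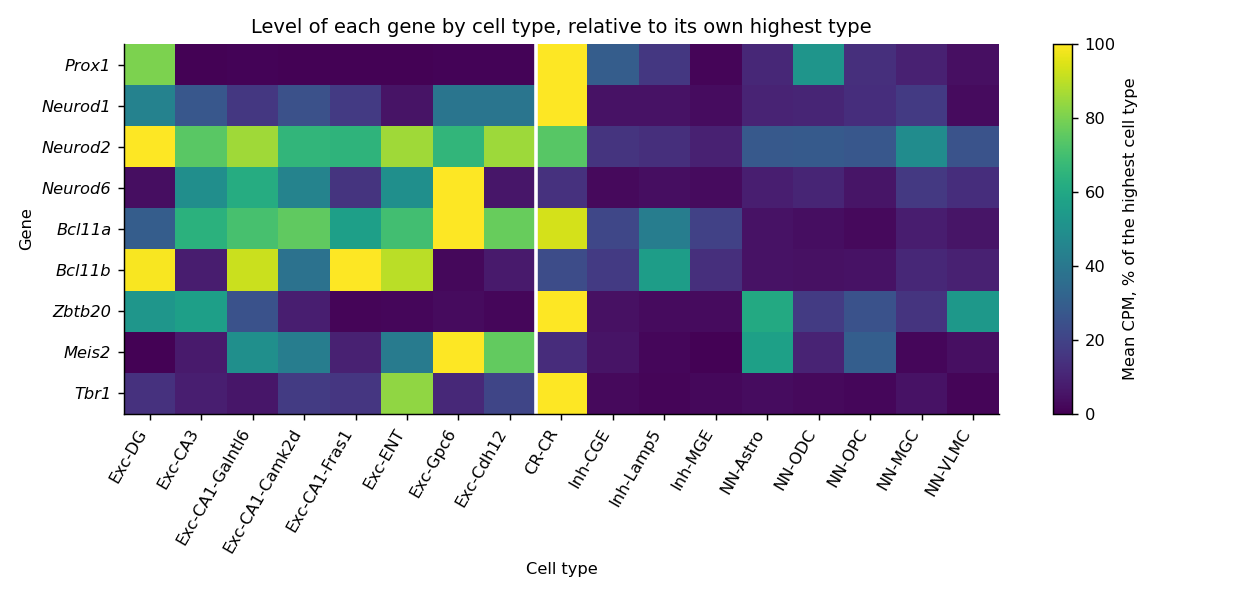
Mean CPM of each of the 9 genes in the 17 cell types, as a share of that gene's highest cell type (colour). Prox1 is high in Exc-DG, CR and ODC, Neurod2 in all 8 excitatory types and CR, and Meis2 in Exc-Gpc6 and Exc-Cdh12.

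Prox1 separated granule cells from the other excitatory types. In Exc-DG it was at 296 and 319 CPM in B6 libraries 2 and 3 and at 237 and 243 CPM in D2 libraries 2 and 3, an order kept below, and these columns held 73.7% of all Prox1 counts. In the 7 other excitatory types its mean was between 1.78 and 3.38 CPM, and Exc-DG lay 154 times above the lowest of them, Exc-CA1-Fras1. Outside excitatory neurons, Prox1 was at 242, 184, 344 and 591 CPM in CR, at a mean of 178 CPM in ODC, 100.3 CPM in CGE, 55.2 CPM in Lamp5 and 4.58 CPM in MGE interneurons. CR overlapped with Exc-DG over the 4 libraries, and ODC lay below Exc-DG and above CGE interneurons in every library. Of the other granule cell markers, Dsp was at 26.1 CPM in Exc-DG and 0.451 CPM in ODC, C1ql2 at 27.3 and 5.01 CPM, and Dock10 was highest in ODC, at 2470 CPM. The part of granule cell RNA in the ODC value was not tested.

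The 3 Neurod genes differed in breadth. Neurod2 was the evenest, with means from 25.3 CPM in Exc-CA1-Fras1 to 38.9 CPM in Exc-DG over the 8 excitatory types, a ratio of 1.54, and every neighbouring pair in its order overlapped between libraries. Its mean was 3.56 to 5.89 CPM in interneurons, 18.9 CPM in MGC and 9.995 to 11.01 CPM in the other non-neuronal types. In CR it was at 28.9 CPM, within the range of the excitatory types, on 2 to 12 counts per library. Neurod6 was high in most pyramidal types and low in granule cells, with means of 146 CPM in Exc-Gpc6, 90.5 CPM in Exc-CA1-Galntl6, 72.8 CPM in Exc-ENT, 72.1 CPM in Exc-CA3 and 65.1 CPM in Exc-CA1-Camk2d, then 21.8 CPM in Exc-CA1-Fras1, 8.63 CPM in Exc-Cdh12 and 5.17 CPM in Exc-DG. The first 5 of these overlapped with their neighbours in the order, and all 5 lay above Exc-CA1-Fras1 in every library. Neurod1, best known from newborn granule neurons, was low everywhere, at 14.2 CPM in CR and at most 6.29 CPM (Exc-DG) in excitatory types, on 630 counts in all. Neurod1 shares bases with Cerkl on the same strand, so that its counts are uncertain.

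Bcl11a and Bcl11b had unlike distributions. Bcl11a was high in every excitatory type, from 142 CPM in Exc-DG to 482 CPM in Exc-Gpc6, and reached 451 CPM in CR and 93.5 to 204 CPM in interneurons, against 13.1 to 38.7 CPM in non-neuronal types. Bcl11b divided the excitatory types, with 264.5 CPM in Exc-CA1-Fras1, 262 CPM in Exc-DG, 244 CPM in Exc-CA1-Galntl6 and 237 CPM in Exc-ENT, each overlapping with the next, followed at a lower level by Exc-CA1-Camk2d and then by 20.8 CPM in Exc-CA3, 19.4 CPM in Exc-Cdh12 and 5.57 CPM in Exc-Gpc6. By mean, Exc-Gpc6 was thus the highest of the 17 types for Bcl11a and the lowest for Bcl11b. It overlapped with CR for Bcl11a and with ODC for Bcl11b over the libraries. Without D2 library 3, CR was the higher for Bcl11a (483 against 479 CPM).

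Zbtb20 was at 3106 CPM in Exc-CA3, 2898 CPM in Exc-DG and 1380 CPM in Exc-CA1-Galntl6, and at 74.0 to 159 CPM in Exc-CA1-Fras1, Exc-ENT, Exc-Cdh12 and Exc-Gpc6. It was also at 5511 CPM in CR, 3352 CPM in astrocytes and 2931 CPM in VLMC. Exc-CA1-Camk2d lay between, at 772, 307, 420 and 362 CPM, with B6 library 2, the column that stands apart, the highest.

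Meis2 was at 620.5 CPM in Exc-Gpc6, 472 CPM in Exc-Cdh12, 309 CPM in Exc-CA1-Galntl6, 262 CPM in Exc-CA1-Camk2d and 258 CPM in Exc-ENT. It was at 56.3 CPM in Exc-CA1-Fras1, 45.6 CPM in Exc-CA3 and 4.6 CPM in Exc-DG, the lowest of the 17 types. Exc-Gpc6 lay above Exc-Cdh12, and Exc-Cdh12 above astrocytes (352 CPM), in every library. Over the 8 excitatory types, which share libraries, the levels of Meis2 and Bcl11a had a Pearson's r of 0.947 on the log2(CPM + 1) scale. That was the highest r over these types among all pairs of the transcription factors studied. Over all 17 types the r of Meis2 and Bcl11a was 0.238. Tbr1 stood out in a single excitatory type, with 29.0, 25.8, 34.8 and 35.9 CPM in Exc-ENT against means of 2.34 to 7.89 CPM in the other 7, and CR was at 35.4, 35.2, 43.0 and 37.0 CPM on at most 17 counts per library.

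The genes most like each member over the 17 cell types were found by Pearson's r of log2(CPM + 1) among 12390 genes, as a description in which all points share libraries. For Neurod2 the first was Slc17a7 (r = 0.945), followed by Crym (0.91) and Rtn4r (0.9). For Neurod1 it was Bhlhe22 (0.888), another bHLH factor, with Ntng2 (0.877) and the overlapping Cerkl (0.862). For Neurod6 these were Pip4k2c (0.857), Zdhhc23 (0.839) and Rprml (0.817), and for Bcl11b Lmo3 (0.817) and Tdp1 (0.809). Antisense genes that overlap the member came first for Prox1 (Prox1os, 0.955, then Dcp1b, 0.846, and Gm12592, 0.825), Bcl11a (Gm12064, 0.996, and 4930538E20Rik, 0.992, then Golga7b, 0.968) and Zbtb20 (Gm9968, 0.985, and Gm15713, 0.967, then Zhx2, 0.914). The sources used here name Cell Ranger for the counting and do not state its strand setting. The part of a gene's reads in the counts of its antisense partner was not tested. For Meis2 the most alike were G630016G05Rik (0.9), Ccdc88c (0.778) and Me1 (0.758), and for Tbr1 Zmiz1os1 (0.894), Psmd14 (0.877) and Tmem132a (0.83).

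The strains were compared within each cell type by edgeR's quasi-likelihood test over all genes, with Benjamini-Hochberg adjustment and a threshold of 0.05. Of the 153 pairs of gene and cell type, 117 passed the filter on low counts and 21 of these differed, 13 higher and 8 lower in D2. This was 17.9% of the pairs tested, against a background of 22.1% of all gene and cell type pairs (12.9% higher and 9.25% lower in D2). In the 8 excitatory types 15 of 64 pairs differed (11 higher and 4 lower), or 23.4%, against 27.1% of all genes there (16.1% higher and 11% lower). In Exc-DG 2 of 9 genes tested differed (36.0% of all genes), in Exc-CA1-Galntl6 2 of 9 (35.0%) and in Exc-CA3 2 of 9 (32.1%). It was 1 of 8 in Exc-CA1-Fras1 (28.5%), 5 of 8 in Exc-ENT (28.0%) and 2 of 8 in Exc-Gpc6 (19.7%). In Exc-CA1-Camk2d it was 1 of 8 (19.4%). Elsewhere 2 of 7 differed in astrocytes (26.2%), 3 of 6 in CGE interneurons (15.1%) and 1 of 6 in CR (4.26%). By edgeR 0 differed in Exc-Cdh12 (8.44%), MGE interneurons (21.0%), Lamp5 interneurons (12.1%), ODC (19.0%), OPC (16.2%), MGC (10.4%) and VLMC (7.87%), where 0, 1, 0, 1, 1, 2 and 0 genes had an unadjusted p under 0.05 and DESeq2 called 0. In these types, in the same order, 5, 7, 4, 7, 7, 6 and 3 of the 9 genes were tested by edgeR. DESeq2 called 10 pairs in all, each among the 21. P-values measure the spread between these libraries of pooled animals.

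**Figure D2:**
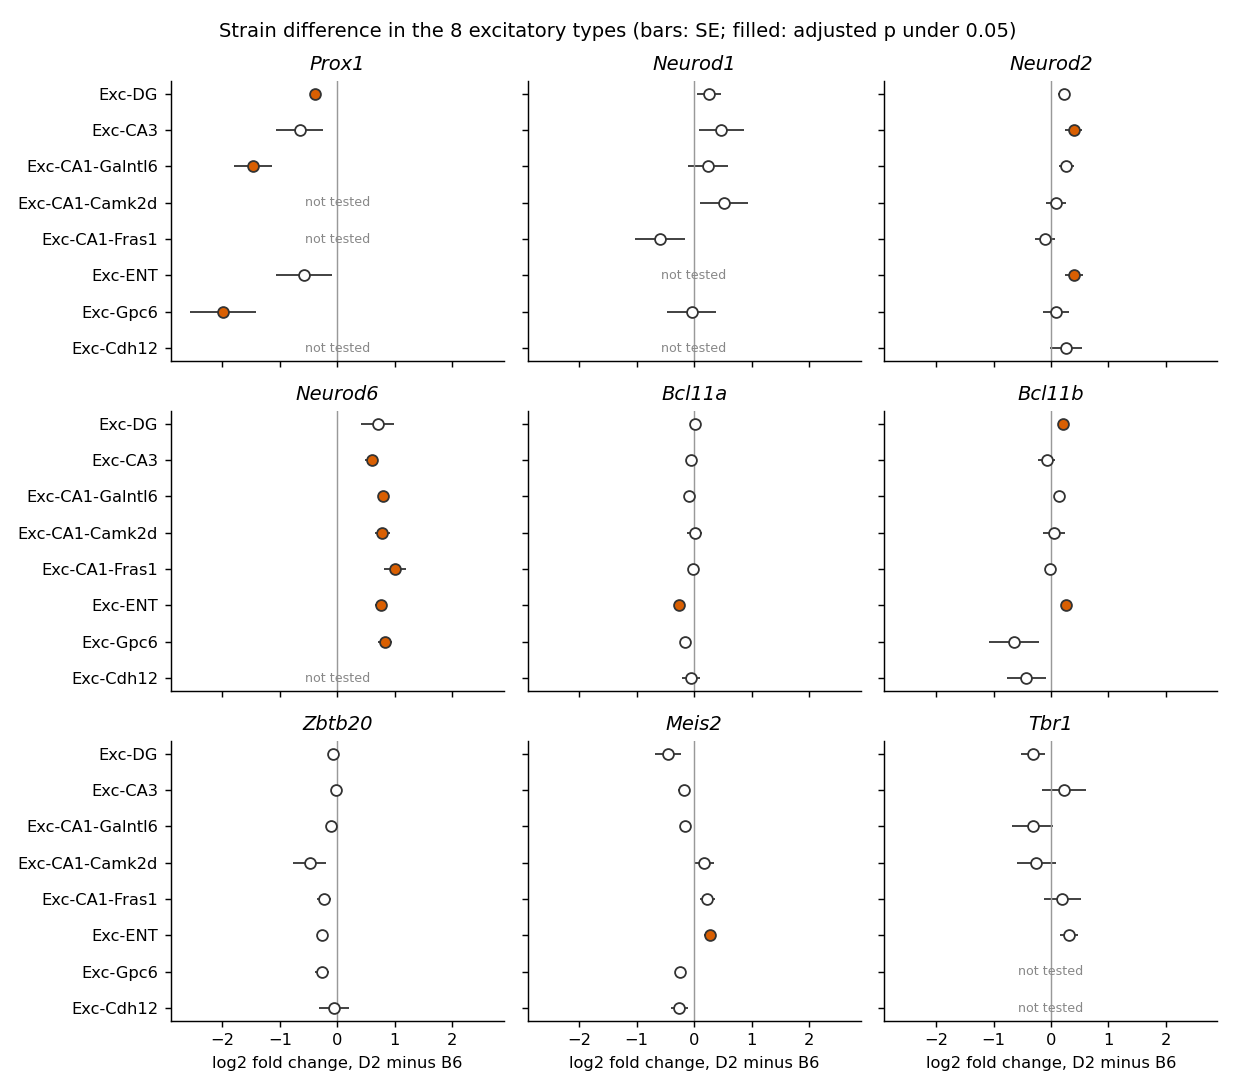
Log2 fold change of D2 minus B6 with the SE of the edgeR fit for the 9 genes in the 8 excitatory types, where filled points have an adjusted p under 0.05. Neurod6 lies to the right of 0 in all 7 types tested, from 0.60 in Exc-CA3 to 1.01 in Exc-CA1-Fras1.

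Neurod6 was higher in D2 in 6 of the 7 excitatory types tested. In Exc-Gpc6 it was at 115, 92.4, 174 and 203 CPM, a 1.77-fold difference (log2 fold change 0.83 ± 0.12, SE, n = 2 per strain, adjusted p = 1.67e-06, edgeR). In Exc-CA1-Galntl6 it was at 69.8, 60.3, 112 and 120 CPM (1.74-fold, 0.80 ± 0.09, adjusted p = 2.28e-06, edgeR). In Exc-ENT it was at 55.4, 50.0, 88.0 and 97.8 CPM (1.7-fold, 0.76 ± 0.11, adjusted p = 4.57e-07, edgeR). In each of these types both D2 libraries exceeded both of B6. In Exc-CA3 the values were 61.6, 52.0, 93.0 and 81.8 CPM (1.51-fold, 0.60 ± 0.11, adjusted p = 0.000466, edgeR), and in Exc-CA1-Camk2d 48.9, 45.5, 83.4 and 82.4 CPM (1.73-fold, 0.79 ± 0.13, adjusted p = 0.000499, edgeR). Exc-CA1-Fras1, where the level was lower, had 14.2, 13.7, 27.2 and 32.1 CPM (2.01-fold, 1.01 ± 0.19, adjusted p = 0.000146, edgeR). The strains did not overlap in these types either. In Exc-DG it was at 2.58, 5.20, 7.33 and 5.57 CPM (log2 fold change 0.70 ± 0.29) and did not pass (adjusted p = 0.075, edgeR), and in Exc-Cdh12, with 1.90, 9.16, 14.5 and 9 CPM, it was not tested. The 6 calls held in each of the 9 alternatives run, DESeq2 and each library left out included. The difference did not vary detectably among the excitatory types (interaction, adjusted p = 0.955, edgeR).

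**Figure D3:**
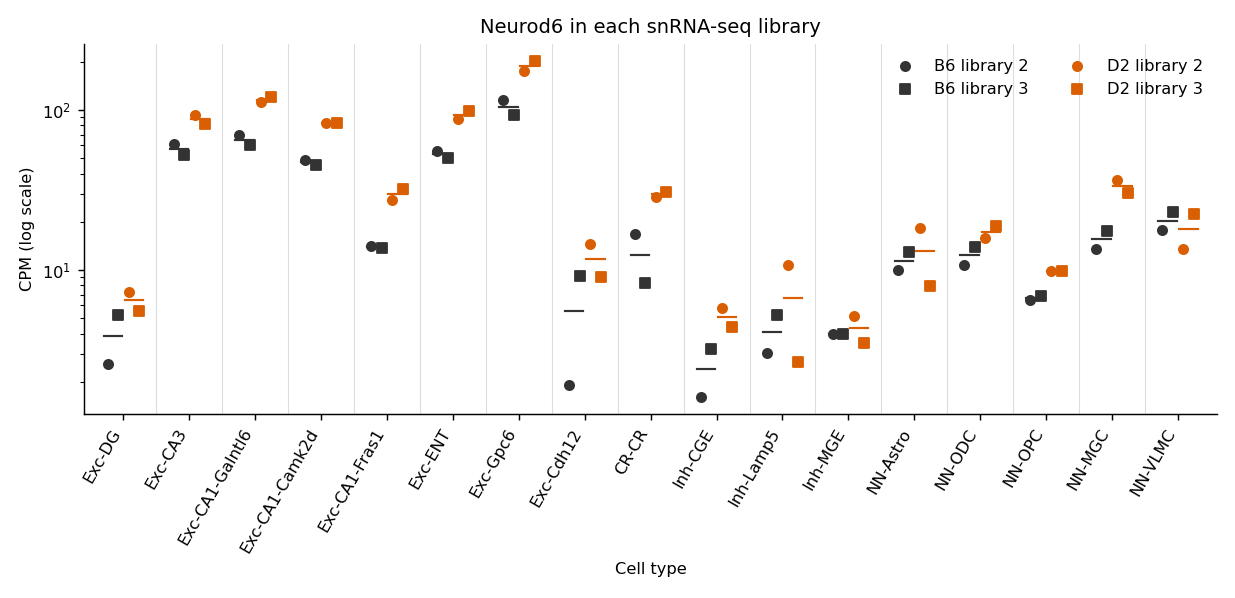
Neurod6 in CPM in each of the 4 libraries for the 17 cell types on a log axis, with symbols for libraries and lines for strain means. Both D2 libraries exceed both of B6 in the 6 excitatory types with an adjusted p under 0.05, namely Exc-CA3, the 3 CA1 clusters, Exc-ENT and Exc-Gpc6. They also do so, without a call, in Exc-DG, CR, CGE interneurons, ODC, OPC and MGC.

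In the 9 other cell types Neurod6 was tested in 5 and differed in 0 by edgeR, with 1 at unadjusted p under 0.05 and 0 by DESeq2. The log2 fold changes of these 5 were all above 0, from 0.13 to 1.11. Neurod6 was higher in both D2 libraries in CR, CGE interneurons, ODC, OPC and MGC, on at most 36 counts per library. It was lower in both in 0 of the 9. In MGC it was at 13.6, 17.5, 36.4 and 30.3 CPM (log2 fold change 1.11, adjusted p = 0.0957, edgeR), higher in both D2 libraries, while Slc17a7 in the same columns was at 99.2, 91.4, 54.6 and 67.4 CPM, lower in both. The part of neuronal RNA in the microglial values was not tested.

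Prox1 was lower in D2 in granule cells, its main excitatory type. The values of 296 and 319 CPM in B6 and 237 and 243 CPM in D2 did not overlap and made a log2 fold change of -0.38 ± 0.07 (SE, n = 2 per strain, 1.3-fold higher in B6, adjusted p = 0.000401, edgeR), which held in all 9 alternatives. The granule cell markers Dsp (31.4, 27.8, 22.8 and 22.4 CPM) and C1ql2 (32.0, 30.1, 20.1 and 27.0 CPM) were also lower in both D2 libraries of Exc-DG, and their part in the difference was not tested. At low levels, Prox1 was at 4.31, 5.54, 1.43 and 2.24 CPM in Exc-CA1-Galntl6 (log2 fold change -1.46 ± 0.34, adjusted p = 0.00253, edgeR) and at 5.33, 5.02, 0.82 and 2.05 CPM in Exc-Gpc6 (-1.99 ± 0.58, adjusted p = 0.0105, edgeR). C1ql2 was at 1.48, 1.62, 0.86 and 1.72 CPM in Exc-CA1-Galntl6 and at 2.67, 2.93, 0.82 and 2.05 CPM in Exc-Gpc6, and Dsp had at most 0.246 and 0.533 CPM. The part of granule cell RNA in these low values was not tested. In CGE interneurons, a lineage that Prox1 is known to mark, it was at 102, 135, 77.7 and 85.8 CPM, lower in both D2 libraries (-0.56 ± 0.15, adjusted p = 0.0153, edgeR). By DESeq2 the calls in Exc-CA1-Galntl6, Exc-Gpc6 and CGE interneurons were lost (adjusted p = 0.0784, 0.512 and 0.172). By edgeR the Exc-Gpc6 call was lost without any 1 of the 4 libraries (adjusted p from 0.0834 to 0.419, edgeR), and that in CGE interneurons without B6 library 3, D2 library 2 or D2 library 3 (adjusted p from 0.322 to 0.423, edgeR).

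In CR, Prox1 was higher in D2, at 242 and 184 CPM in B6 and 344 and 591 CPM in D2 (log2 fold change 1.12 ± 0.27, adjusted p = 0.0185, edgeR). The D2 columns held 45 and 46 nuclei and the B6 columns 171 and 138. The call was lost without D2 library 3 (0.68, adjusted p = 0.266, edgeR), the column with low Trp73 and Reln, and also without B6 library 2 (1.27, adjusted p = 0.0826, edgeR) or B6 library 3 (0.90, adjusted p = 0.449, edgeR) and by DESeq2 (1.07, adjusted p = 0.28). Trp73 and Reln were lower in both D2 columns than in both of B6. The part of the makeup of the D2 columns in the difference was not tested.

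Meis2 differed in 3 cell types and not all in 1 direction. In Exc-ENT it was at 209, 249, 282 and 290.5 CPM (log2 fold change 0.27 ± 0.09, adjusted p = 0.0207, edgeR), and in astrocytes at 308.5, 337, 363 and 401.5 CPM (0.33 ± 0.10, adjusted p = 0.00714, edgeR), higher in both D2 libraries. In CGE interneurons it was at 54.9, 38.0, 17.8 and 19.4 CPM, 2.53-fold higher in B6 (-1.34 ± 0.23, adjusted p = 0.000245, edgeR). In Exc-Gpc6 (654, 675, 565.5 and 588 CPM) and Exc-CA1-Galntl6 (319, 327, 295 and 295 CPM) both D2 libraries were lower than both of B6, with adjusted p = 0.0613 and 0.0516 (edgeR). The Exc-ENT call was lost without B6 library 2 (0.14, adjusted p = 0.373), D2 library 2 (adjusted p = 0.0565) or D2 library 3 (adjusted p = 0.0849, edgeR), and by DESeq2 (adjusted p = 0.154). The call in astrocytes was lost without D2 library 3 (0.27, adjusted p = 0.225, edgeR), and that in CGE interneurons without D2 library 2 or 3 (-1.29 and -1.38, adjusted p = 0.273 and 0.296, edgeR).

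**Figure D4:**
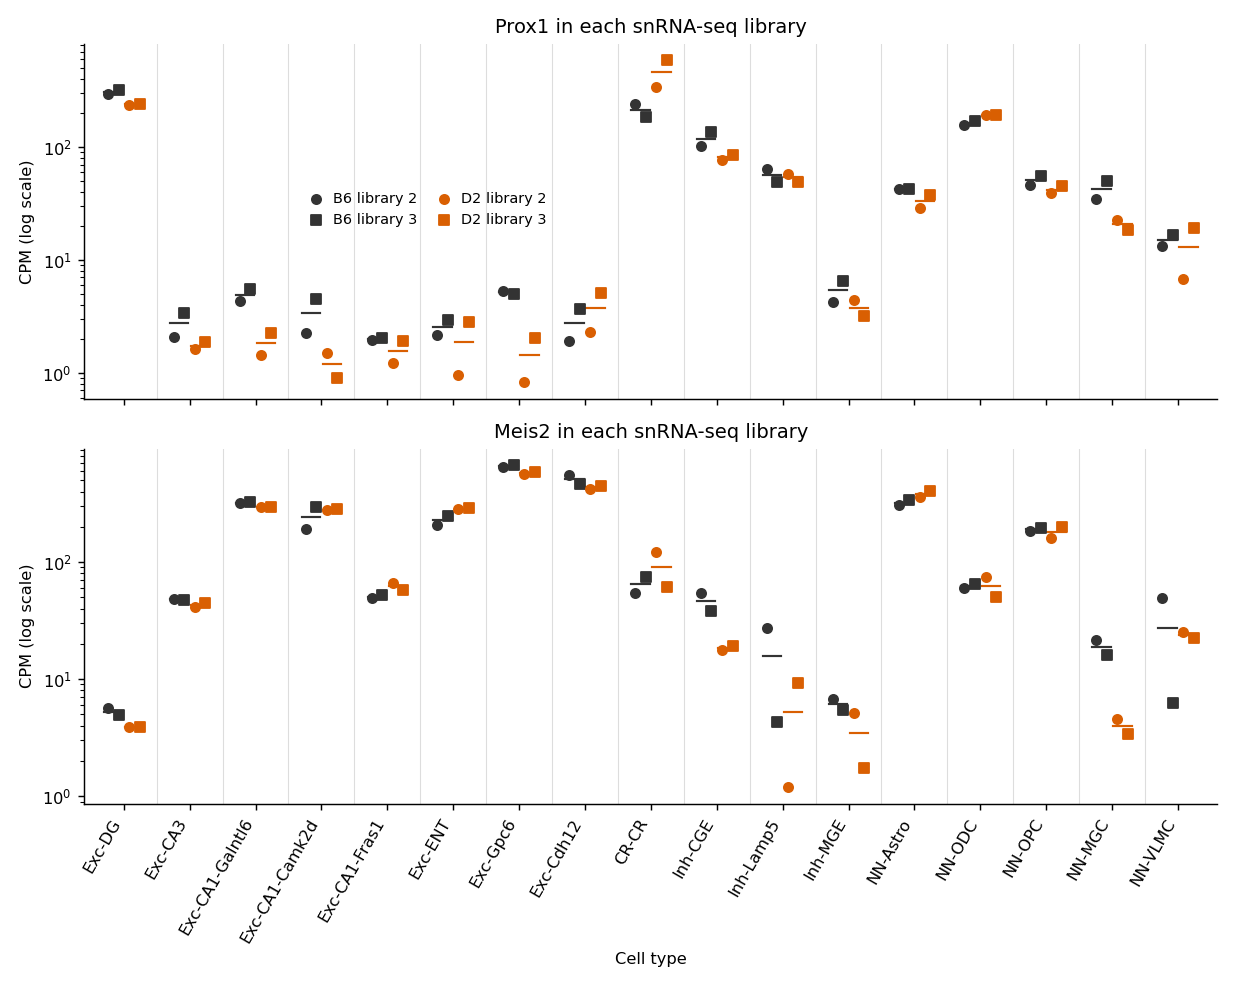
Prox1 and Meis2 in CPM in each of the 4 libraries for the 17 cell types on a log axis, with symbols for libraries and lines for strain means. Prox1 is lower in D2 in Exc-DG and higher in D2 in CR, and Meis2 is lower in D2 in CGE interneurons and higher in D2 in Exc-ENT.

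Whether a strain difference varied among the 8 excitatory types was tested for each gene with all interaction terms of cell type and strain together. Meis2 was the only one of the 9 to pass (F = 4.37, adjusted p = 0.0277, edgeR), against 5.57% of all genes. Its log2 fold changes were positive in Exc-ENT (0.27), Exc-CA1-Fras1 (0.23) and Exc-CA1-Camk2d (0.17), and negative in Exc-CA1-Galntl6 (-0.16), Exc-CA3 (-0.18), Exc-Gpc6 (-0.24), Exc-Cdh12 (-0.26) and Exc-DG (-0.46). In Exc-CA1-Camk2d the strains overlapped, with 193 CPM in B6 library 2, the column that stands apart, 293.5 CPM in B6 library 3, and 277 and 284 CPM in D2. For Meis2 the adjusted p was 0.000185 without the Exc-CA1-Camk2d columns (edgeR). Meis2 also passed without B6 library 2 and without B6 library 3, in fits that left B6 with no replicate. Without B6 library 3, the B6 column left in Exc-CA1-Camk2d was the column that stands apart. Meis2 did not pass by DESeq2 (adjusted p = 0.0772), nor by edgeR without D2 library 2 or D2 library 3. Without either D2 library, fewer of all genes passed than without either B6 library. Zbtb20 did not pass with all libraries, but passed without B6 library 2 and without B6 library 3. In these fits the B6 column left in Exc-CA1-Camk2d was at 307 and 772 CPM of Zbtb20, and B6 had no replicate.

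The zinc finger genes differed in few types. Bcl11b was higher in D2 in Exc-DG, at 248, 235, 278 and 287.5 CPM (log2 fold change 0.21 ± 0.07, adjusted p = 0.0303, edgeR), and in Exc-ENT, at 216, 206.5, 270 and 255 CPM (0.26 ± 0.09, adjusted p = 0.019, edgeR). The strains did not overlap in either type. The Exc-DG call was lost without B6 library 3, D2 library 2 or D2 library 3 (adjusted p from 0.0823 to 0.155, edgeR), and the Exc-ENT call without B6 library 3 or D2 library 2 (adjusted p = 0.118 and 0.203, edgeR). DESeq2 made neither call (adjusted p = 0.0708 and 0.136). Bcl11a was lower in D2 in Exc-ENT, at 362, 358, 304 and 318 CPM (-0.26 ± 0.08, adjusted p = 0.0134, edgeR), in CGE interneurons, at 119, 114.5, 79.0 and 95.7 CPM (-0.44 ± 0.14, adjusted p = 0.0376, edgeR), and in astrocytes, at 29.3, 29.1, 19.7 and 14.1 CPM (-0.70 ± 0.20, adjusted p = 0.00672, edgeR). Slc17a7 in the astrocyte columns was at 61.8, 58.4, 45.2 and 35.7 CPM, lower in D2 too, and its part in the astrocyte value of Bcl11a was not tested. These calls were lost without D2 library 2 in Exc-ENT (-0.24, adjusted p = 0.102, edgeR), without D2 library 3 in astrocytes (-0.47, adjusted p = 0.177, edgeR) and without any 1 of the 4 libraries in CGE interneurons (adjusted p from 0.0898 to 0.306, edgeR). DESeq2 lost those in astrocytes and CGE interneurons (adjusted p = 0.23 and 0.352), and the latter was also lost among genes with counts in both strains (adjusted p = 0.05825, edgeR).

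Neurod2 was higher in D2 in Exc-ENT, at 26.2, 29.8, 33.8 and 43.7 CPM (log2 fold change 0.41 ± 0.16, adjusted p = 0.04725, edgeR), and in Exc-CA3, at 21.3, 28.4, 31.7 and 34.5 CPM (0.40 ± 0.15, adjusted p = 0.0498, edgeR). Both calls lay close to the threshold and were lost by DESeq2 (adjusted p = 0.438 and 0.363). They were also lost with RLE factors (adjusted p = 0.0506 and 0.0518, edgeR) and among genes with counts in both strains (0.0737 and 0.0698, edgeR). Both were lost without B6 library 2 (log2 fold change 0.31 and 0.20) and without D2 library 3 (0.23 and 0.36). The Exc-CA3 call was also lost without D2 library 2 (0.43). Zbtb20 was tested in all 17 cell types and differed in 0 by edgeR, with 4 at unadjusted p under 0.05 and 0 by DESeq2, on log2 fold changes from -0.48 to 0.61. In Exc-DG it was at 3019, 2874, 2822 and 2877 CPM, and in Exc-CA3 at 3177, 3033, 3113 and 3100 CPM, so that the strains overlapped in both. Of the 17 types, both D2 libraries lay above both of B6 in 3 and below in 3. Among these were OPC, at 1345, 1208, 1447 and 1536 CPM (adjusted p = 0.0517, edgeR), and Exc-ENT, at 101.5, 107.9, 92.5 and 88.4 CPM (adjusted p = 0.0552, edgeR). Neurod1 and Tbr1, tested in 6 and 7 types, differed in 0 by edgeR, with 0 and 1 at unadjusted p under 0.05, and in 0 by DESeq2. Tbr1 in Exc-ENT was at 29.0 and 25.8 CPM in B6 and 34.8 and 35.9 CPM in D2 (log2 fold change 0.32 ± 0.15, adjusted p = 0.124, edgeR).

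Chromatin accessibility at the promoters was measured by single-nucleus ATAC sequencing (snATAC-seq) in 15 of the cell types, CR and VLMC not among them, with 2 libraries per strain. Nuclei for snATAC-seq were not enriched for neurons by NeuN, unlike those for snRNA-seq. Within 1000 bases of annotated start sites the 9 genes had 19 peaks. Exc-DG columns held 18111758 to 27815541 counts and OPC columns 278059 to 418650, from 14 to 32 nuclei. Over the 8 excitatory types, Pearson's r between RNA and the most counted peak was 0.984 for Bcl11b, 0.969 for Zbtb20, 0.948 for Prox1 and for Meis2, 0.941 for Neurod6, 0.938 for Neurod1, 0.809 for Tbr1, 0.745 for Neurod2 and -0.598 for Bcl11a, as a description over types that share libraries. For that Bcl11a peak r was 0.602 over all 15 types, and another Bcl11a peak with 11487 counts against 12571 had r = 0.47 over the excitatory types and 0.743 over all 15. The authors carried cell type labels from snRNA-seq to snATAC-seq nuclei by linking RNA to ATAC counts over gene bodies and the bases upstream. The labels of the 2 assays are thus linked, and these r values are not an independent check of 1 assay by the other.

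The Neurod6 peak (chr6:55680952-55682294, mm10), which holds the whole window printed above, was at 23.4 CPM in Exc-Gpc6 and 21.1 CPM in Exc-ENT, and at 2.55 CPM in Exc-DG. The larger Prox1 peak (chr1:190169956-190171058, mm10), sharing 281 bases with the printed window, was at 21.3 CPM in Exc-DG, against 3.03 CPM in Exc-CA1-Galntl6. It was at 31.6 CPM in ODC (61.2, 24.5, 22.5 and 18.3 CPM), 34.1 CPM in OPC, 28.0 CPM in astrocytes and 21.3 CPM in MGC. The columns of these non-neuronal types held 5 to 20 counts of the peak each, against 408 to 571 in Exc-DG. The Tbr1 peak was at 47.0 CPM in Exc-ENT and still at 43.5 CPM in Exc-DG, where the RNA was at 5.41 CPM. The most counted Bcl11a peak was at 36.9 CPM in Exc-DG, the excitatory type with the least Bcl11a RNA.

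**Figure D5:**
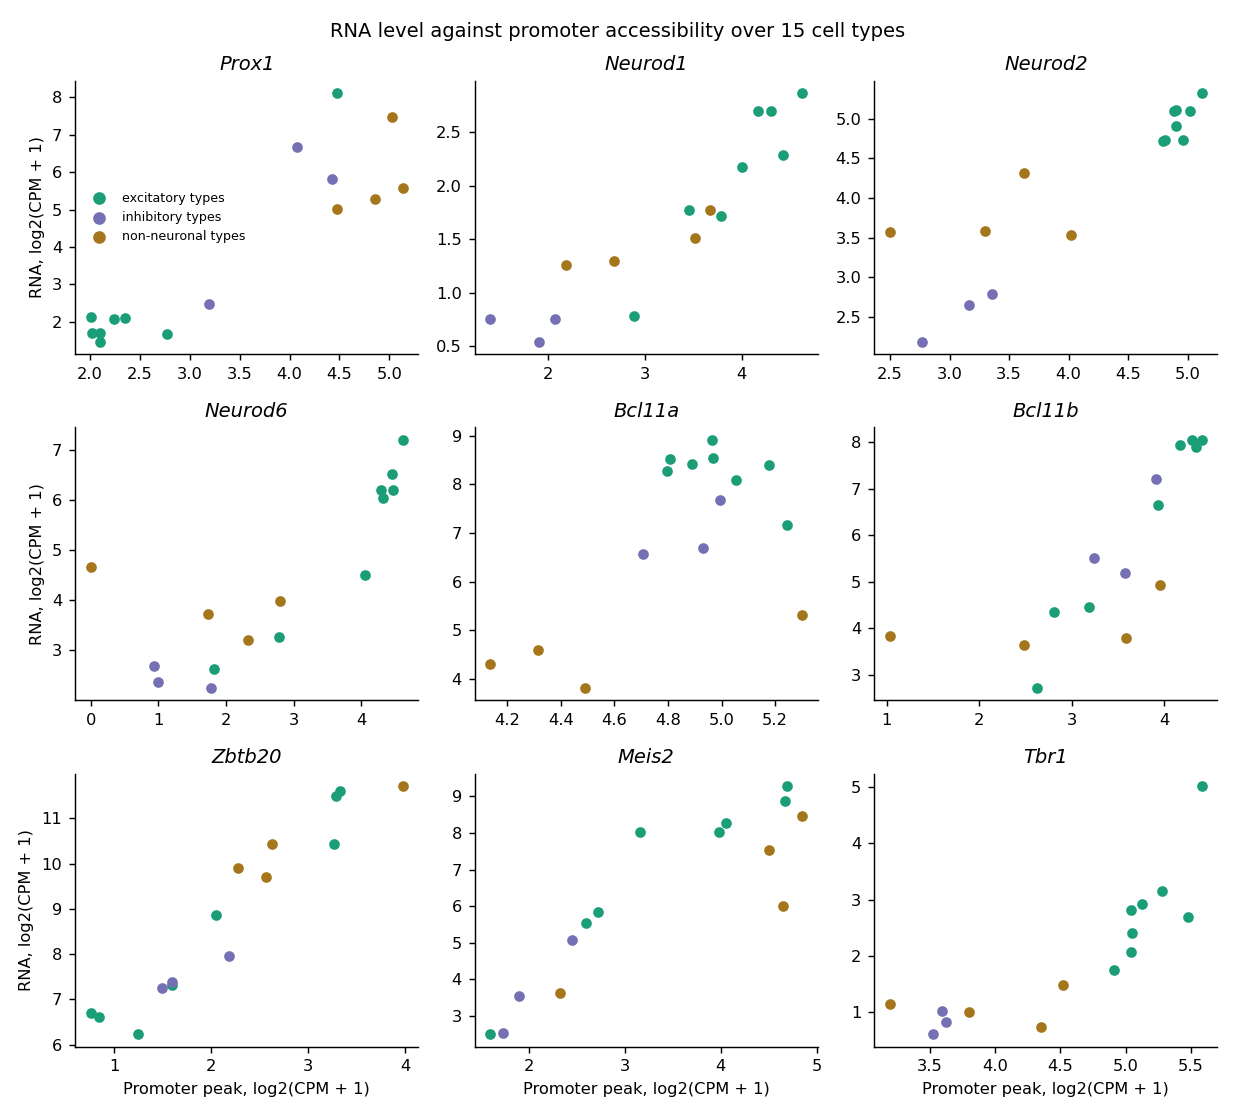
RNA level against accessibility of the most counted promoter peak of each of the 9 genes, both as log2(CPM + 1) of the mean over strains, with 1 point for each of 15 cell types coloured by class. The Neurod6 and Prox1 peaks are low where the RNA of excitatory types is low, while the Tbr1 peak is at 43.5 CPM in Exc-DG, where Tbr1 RNA is at 5.41 CPM.

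Strain differences at these peaks were tested in Exc-DG, the 3 CA1 clusters and Exc-CA3. Of the 90 tests that passed the filter 0 differed by edgeR, with 5 at unadjusted p under 0.05 and 0 by DESeq2. Of all peaks, 7.05% differed in Exc-DG, 6.42% in Exc-CA1-Galntl6, 6.14% in Exc-CA3, 3.48% in Exc-CA1-Camk2d and 3.27% in Exc-CA1-Fras1. The Neurod6 peak was at 18.4, 22.0, 20.3 and 22.8 CPM in Exc-CA1-Galntl6 (log2 fold change 0.13 ± 0.09, adjusted p = 0.533, edgeR) and at 18.5, 19.3, 17.9 and 18.8 CPM in Exc-CA3 (0.00 ± 0.09, adjusted p = 0.999, edgeR), where the strains overlapped and the RNA was higher in D2. In Exc-CA1-Fras1 both D2 libraries exceeded both of B6, at 13.7, 13.7, 17.4 and 17.1 CPM (0.35 ± 0.14, adjusted p = 0.22, edgeR), and in Exc-CA1-Camk2d both lay below, at 19.6, 21.0, 17.8 and 17.4 CPM (-0.18 ± 0.13, adjusted p = 0.539, edgeR). The larger Prox1 peak in Exc-DG was at 20.7, 21.4, 22.5 and 20.5 CPM, with the strains overlapping (0.06 ± 0.08, adjusted p = 0.782, edgeR).

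Other genes of the same pathways were read from 3 lists. Of 11 bHLH partners, inhibitors and relatives, 10 of 50 tests in the excitatory types differed, or 20% against 27.1% of all genes, with a median log2 fold change of 0.05, and medians of all genes in the 8 types were 0.03 to 0.06. Tcf12, an E protein that pairs with Neurod factors, made up all 8 of the lower calls, and in Exc-CA1-Galntl6 it was at 220, 223, 161 and 143 CPM (-0.57 ± 0.08, adjusted p = 1.36e-05, edgeR). Tcf4, its relative, was at 1113, 1066, 1032 and 995 CPM in Exc-CA1-Fras1, its smallest adjusted p (0.0676, edgeR). Id2, which sequesters E proteins, was higher in D2 in 1 of 7 types, Exc-CA1-Fras1, at 12.4, 15.8, 20.6 and 28.0 CPM (adjusted p = 0.0119, edgeR).

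Of 8 TALE homeodomain partners and relatives of Meis2, 8 of 58 tests differed (13.8%, against 27.1% of all genes), 6 higher and 2 lower in D2, with a median log2 fold change of 0.05. Pbx3 was higher in 1 of 8 types, Exc-Gpc6, at 46.9, 45.6, 93.1 and 101.7 CPM (2.04-fold, adjusted p = 4.66e-07, edgeR), and Pbx4 in 5 of 8, with 15.7, 14.7, 29.8 and 27.0 CPM in Exc-DG (1.84-fold, adjusted p = 4.78e-05, edgeR). Pknox2 was lower in D2 in 2 of 8, with 50.6, 54.4, 36.1 and 37.9 CPM in Exc-CA1-Galntl6 (adjusted p = 0.000615, edgeR). Meis1, with at most 2.01 CPM in Exc-CA1-Galntl6, had its smallest adjusted p there (0.125, edgeR).

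Of 32 other transcription factors of glutamatergic neurons, 67 of 217 tests differed (30.9%, against 27.1% of all genes, 16.1% higher and 11% lower), 22 higher and 45 lower in D2, with a median log2 fold change of -0.03. Foxp1, a forkhead repressor, was lower in D2 in all 8 excitatory types, with 530, 576, 354 and 314.5 CPM in Exc-ENT (1.71-fold higher in B6, adjusted p = 9.88e-10, edgeR). Nfia, a nuclear factor I protein, was lower in 6 of 8, with 286.5, 288, 191 and 197 CPM in Exc-CA1-Galntl6 (1.51-fold higher in B6, adjusted p = 1.39e-06, edgeR). Sox5, an SRY-box factor, was higher in 3 of 8, with 311, 330, 582 and 619 CPM in Exc-CA1-Galntl6 (1.83-fold, adjusted p = 7.08e-09, edgeR). Etv1, an ETS factor, was higher in 2 and lower in 2 of 8, with 233.5, 205, 336 and 394 CPM in Exc-CA1-Fras1 (1.58-fold, adjusted p = 3.41e-06, edgeR).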

How the data were processed

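The snRNA-seq and snATAC-seq tables hold counts that the authors deposited as raw sums per gene or peak over the nuclei of each cell type and library, with cell types assigned by the authors after they removed doublets with DoubletFinder in both assays. The submitters' processing notes name Cell Ranger 6.0.2, Cell Ranger ATAC 2.0.0 and Seurat 4.0.5. Columns were placed by strain only, because their headers carry library numbers 2 and 3 whereas replicates 1 and 2 are given in the labels. The methylation samples were not analysed here.

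Strains were compared with edgeR 4.0.16 in R 4.3.3 (quasi-likelihood test, TMM factors, default filter on low counts, Benjamini-Hochberg adjustment over all genes or peaks of a cell type), 1 fit per cell type. Variation among the excitatory types was tested in 1 fit with library and cell type as terms. An exact permutation test of 2 against 2 libraries cannot go below p = 0.33. Levels are CPM on column totals. Alternatives were DESeq2 1.42.0, RLE factors, a minimum of 10 counts, genes with counts in both strains, the library number as a block and each library left out. Scripts were tested on simulated data. Promoter windows came from RefSeq, and tables and figures were made with Python 3.11.15 and pandas 2.3.3.

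The 9 genes were named in every cell type, with the 3 genes most like each over the cell types (at least 10 counts per strain and 20 CPM in 1 type) and, from each of 3 gene lists, up to 4 genes with the smallest adjusted p in an excitatory type. Of the genes this rule names, 2 are not reported here. The members and lists were chosen with earlier results of these data known.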

Additional observations from a re-analysis of the deposited data

Results flagged for a closer look

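The D2 minus B6 difference of Meis2 varied among the 8 excitatory types (interaction, adjusted p = 0.0277, edgeR). Meis2 was higher in both D2 libraries in astrocytes (log2 fold change 0.33) and Exc-ENT (0.27) and lower in both in CGE interneurons (-1.34). Whether the difference in CGE interneurons differs from those in astrocytes and Exc-ENT was not tested.

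Prox1 was higher in both D2 libraries in CR (log2 fold change 1.12) and lower in both in Exc-DG (-0.38), CGE interneurons (-0.56), Exc-CA1-Galntl6 (-1.46) and Exc-Gpc6 (-1.99). The difference between CR and these cell types was not tested.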

How the results depend on the processing

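Of the 21 strain differences, DESeq2 called 10, and it called 10.2% of all gene and cell type pairs against 22.1% by edgeR. RLE factors gave 19 calls, a minimum of 10 counts 23, and genes with counts in both strains 18. Leaving out each library gave 13 to 24 calls, the fewest without D2 library 3. Without CR and Exc-CA1-Camk2d, an alternative chosen after seeing the data, there were 19 calls. None of the 21 differences changed sign in any alternative, and those of Neurod6 in 6 types and of Prox1 in Exc-DG passed in all 9. The number of genes whose difference varied among excitatory types was 1, 0 by DESeq2 and 0 to 2 with each library left out. At promoter peaks it was 0 in every alternative. The number of genes highest in an excitatory type was 5, and 4 to 5 with each library left out, 6 in B6 alone and 7 with TMM factors. The causes of these changes were not tested. With the library number as a replicate block, 22 pairs were called, and Prox1 in CR was not (log2 fold change 1.09, adjusted p = 0.18, edgeR). Same-numbered libraries of the strains had a median correlation of deviations of -0.0392 over the cell types, so that the numbers were not taken as pairs. Depth limits CR most, where 3 counts stood for up to 21.5 CPM.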
